A study of Mus musculus with 12 samples.

Results

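Iron-sulphur cluster assembly genes were followed in liver and quadriceps muscle of mice with a hypomorphic mutation of PGC-1beta. The set held 9 genes named by symbol (Nfs1, Iscu, Hscb, Glrx5, Isca1, Isca2, Nfu1, Bola3 and Ciao2a), out of 18193 genes measured, and their 16 probe sets out of 45037. They were chosen by their role in the pathway with earlier mutant and control intensities of these arrays in view, in both tissues, so each mutant minus control value below describes the genes chosen and carries no p-value. All 9 genes had at least 1 probe set above the filter on dim signals, and 14 of the 16 probe sets passed.

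The study measured RNA with Affymetrix mouse expression arrays in 4 groups of 3 arrays: mutant liver, control liver, mutant muscle and control muscle. All animals were C57BL/6, and the mutant groups carried the PGC1beta mutation named in the labels. The sources used here do not give the lesion of the allele, whether it acts in all tissues, or the age, sex and diet of the mice. The labels number the samples of each group without saying that they came from separate mice, so a p-value here reflects only how far these samples spread, possibly for technical reasons.

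Iron-sulphur clusters are cofactors made of iron and sulphide that carry electrons in respiratory chain complexes and sit in enzymes of the citric acid cycle, lipoate synthesis and DNA metabolism. They are built in mitochondria on a scaffold protein, released with the help of a chaperone pair, and passed by carrier proteins to their clients, while a second machinery in the cytosol serves cytosolic and nuclear clients. PGC-1beta, encoded by Ppargc1b, is a transcriptional coactivator of mitochondrial genes that works through nuclear receptors such as the estrogen-related receptors and through NRF1. In liver and muscle, mitochondria-rich tissues, the main clients are subunits of the respiratory chain.

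The promoters of 3 members are shown because their values differ most in kind. Ciao2a had the largest mutant minus control difference in liver, and Isca1 the largest difference between the tissues. Isca2 was higher on all liver mutant arrays once normalized within tissue, with more spread. Each window runs from 250 bases before to 50 bases after the gene start in RefSeq (GRCm38.p6), 5′ to 3′ on the gene's strand, at chr9:66126361-66126660 on the plus strand for Ciao2a, chr13:59769740-59770039 on the minus strand for Isca1 and chr12:84773020-84773319 on the plus strand for Isca2. Capitals mark matches, on either strand, to 4 motifs: the estrogen-related receptor half-site AAGGTCA, the NRF1 motif (GCGC, any base, then TGCGC), the ETS motif CCGGAAG and the YY1 motif AANATGGCG.
Ciao2a: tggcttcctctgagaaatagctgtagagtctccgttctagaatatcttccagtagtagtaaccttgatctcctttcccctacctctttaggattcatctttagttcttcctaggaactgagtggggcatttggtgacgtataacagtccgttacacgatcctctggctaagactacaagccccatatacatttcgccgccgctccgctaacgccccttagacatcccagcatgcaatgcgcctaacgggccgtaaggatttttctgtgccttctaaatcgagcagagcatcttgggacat
Isca1: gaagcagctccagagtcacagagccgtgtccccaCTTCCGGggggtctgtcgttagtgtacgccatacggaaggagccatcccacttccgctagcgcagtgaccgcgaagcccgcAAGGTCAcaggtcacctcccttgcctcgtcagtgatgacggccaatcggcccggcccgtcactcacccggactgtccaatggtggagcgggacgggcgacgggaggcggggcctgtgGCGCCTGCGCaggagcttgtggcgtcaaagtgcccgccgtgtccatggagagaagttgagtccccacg
Isca2: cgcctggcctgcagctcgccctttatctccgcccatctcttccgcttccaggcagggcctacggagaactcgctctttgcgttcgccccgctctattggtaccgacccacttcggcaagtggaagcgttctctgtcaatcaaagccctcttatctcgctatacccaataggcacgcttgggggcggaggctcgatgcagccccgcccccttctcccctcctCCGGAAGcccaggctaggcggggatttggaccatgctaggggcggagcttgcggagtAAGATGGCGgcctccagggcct
The Ciao2a window held no match to any of the 4 motifs, and its GC content of 48% lay under the median of 52.67% over all promoter windows. Isca1 was the member with a half-site match, which started 135 bases before the gene start. Its window also held an NRF1 match 18 bases and an ETS match 216 bases before the start. Isca2 had an ETS match 29 bases before and a YY1 match 28 bases after its start. These letters occurred in 4.718% (half-site), 4.603% (NRF1), 8.858% (ETS) and 2.38% (YY1) of 32851 promoter windows of the same length, and the motifs do not overlap one another in these windows. Windows were found for 7 of the 9 members, with 3 alternative starts for Bola3. Iscu and Hscb were not matched. Nfs1 had 2 ETS matches, Nfu1 had 1 NRF1 match, and Glrx5 and Bola3 had none of the 4.

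Expression values are linear probe set intensities brought to the same distribution within each tissue, and group values are means ± SD over 3 arrays. Where a gene has several probe sets, the brightest on average stands for it. Differences are on the log2(intensity + 16) scale, with the standard error (SE) and 95% interval from limma, and a gene is called where its adjusted p over all genes is under 0.05. Levels are compared between groups for the same probe set and not between genes.

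The liver arrays differed among themselves in overall signal and RNA quality more than the muscle arrays. The liver results are to be read with this in mind. Array medians as deposited lay between 27.2 and 40.1 in liver, and between 20.1 and 22.3 in muscle. The 3′ to 5′ signal ratio of control probe sets, which rises when RNA is degraded, had a mean log2 value of 1.90, 0.90 and 1.87 on liver mutant arrays 1, 2 and 3, and of 0.74, 0.97 and 0.50 on the liver control arrays. Liver mutants 1 and 3 stood apart from the other 4 liver arrays, and liver mutant 2 lay inside the control range. In muscle the ratio ran from 0.33 to 0.56 in mutants and from 0.40 to 0.52 in controls. Summed over 9 macrophage markers the intensity ran from 2985 to 3803 in mutant liver and from 1895 to 2581 in control liver, and 2 of the 9, Lyz2 and Tyrobp, were called higher. Hepatocyte markers, 7 of 8 measured, summed to between 67677 and 71667 in mutant liver and between 74281 and 75321 in control liver, and to at most 150 in muscle, and 1 of the 7, Tat, was called lower in mutant liver. The 8 skeletal muscle markers summed to between 81875 and 84940 in mutant muscle and between 82478 and 83157 in control muscle, and to at most 150 in liver, so both tissue labels held. In muscle, 6 stellate and fibroblast markers summed to between 15936 and 27542 in mutants and between 10094 and 20287 in controls. No marker was at 0. In such bulk samples fewer cells of a type and less RNA per cell cannot be told apart. Ppargc1b itself read 402, 491 and 202 in mutant liver and 544, 282 and 479 in control liver, a difference of -0.28 (SE 0.32, 95% interval -0.98 to 0.42). In muscle it read 423, 280 and 271 in mutants and 302, 284 and 332 in controls, a difference of 0.06 (SE 0.17), so the groups overlapped in both tissues.

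In liver the assembly genes differed among themselves: 4 of the 9 (Ciao2a, Hscb, Isca2 and Bola3) were higher on every mutant array than on every control array, Iscu was lower on every mutant array, and the groups of the other 4 overlapped. Over all 13326 genes tested in liver the groups did not overlap for 24%, in 13% with the mutants above and in 11% with the mutants below. Which members separated depended on the scaling. As deposited, Isca2 (lowest mutant 598, highest control 616) and Iscu (highest mutant 2125, lowest control 2001) overlapped. Glrx5 did not overlap as deposited, with its lowest mutant at 3411 and its highest control at 3099. The fit called 1 of the 9 members, Ciao2a, against 3.35% of all genes. As the members were chosen with these values known, nothing is read from either count. The median difference over the members was 0.15, against 0.01 over all genes tested. It was 0.39 as deposited and 0.38 with centred array medians, against 0.02 and 0.01 over all genes.

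After normalization within tissue, the 2 genes of the early steps, sulphur donation and scaffold, averaged below the controls in mutant liver. Nfs1, the cysteine desulphurase that supplies sulphur to the scaffold, read 927, 1014 and 1378 in mutant liver and 1246, 1219 and 1179 in control liver. Mutants 1 and 2 were below all controls and mutant 3 above them, and the difference was -0.15 (SE 0.16, 95% interval -0.50 to 0.19). A second probe set of Nfs1 gave -0.39 (SE 0.17). It read 223, 268 and 247 in mutant liver and 310, 288 and 391 in control liver, with no overlap. As deposited the groups of this probe set overlapped (highest mutant 288, lowest control 252). Iscu, the scaffold on which the cluster is assembled, read 1549, 1921 and 2055 in mutant liver and 2290, 2369 and 2275 in control liver. Every mutant array was below every control array, with mutant 1 the lowest, and the difference was -0.33 (SE 0.13, 95% interval -0.62 to -0.05), which the fit did not call. As deposited the Iscu groups overlapped and the difference was -0.15. Nfs1 as deposited averaged 1158 in mutant liver and 1156 in control liver, a difference of -0.007.

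Of the genes that act on the assembled cluster, Hscb had a larger difference than Glrx5. This co-chaperone, which brings the loaded scaffold to the mitochondrial Hsp70, read 354, 332 and 334 in mutant liver and 177, 250 and 199 in control liver. The mutants lay close together and above the highest control, and the difference was 0.68 (SE 0.17, 95% interval 0.31 to 1.04). Glrx5, the monothiol glutaredoxin that carries the cluster onward, read 3968, 3215 and 3891 in mutant liver and 3417, 3696 and 2877 in control liver. Mutant 2 lay within the controls, mutants 1 and 3 above them, and the difference was 0.15 (SE 0.13). It was 0.39 as deposited, -0.15 when the 3′ to 5′ signal ratio of each array entered the fit, and -0.05 without mutants 1 and 3 together.

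The late-acting genes lay on both sides of 0. Isca1 and Isca2 encode A-type proteins that work together in making 4Fe-4S clusters. Isca2 read 885, 752 and 607 in mutant liver and 475, 546 and 532 in control liver, a difference of 0.50 (SE 0.16, 95% interval 0.14 to 0.87). All 3 mutants were above all controls, but they spread over a wider range. As deposited, Isca2 on mutant 3 (598) was below control 3 (616). Isca1 read 1037, 958 and 928 in mutant liver and 942, 1372 and 1026 in control liver. Its groups overlapped, with control 2 the highest array, and the difference was -0.17 (SE 0.16, 95% interval -0.52 to 0.17).

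Nfu1 and Bola3 act at the end of the mitochondrial pathway, in the delivery of clusters to clients such as lipoate synthase. Bola3 read 1559, 1594 and 1577 in mutant liver and 1144, 1227 and 1023 in control liver, a difference of 0.48 (SE 0.12, 95% interval 0.21 to 0.74). The mutants were tightly grouped above all controls. A dimmer Bola3 probe set read 113, 80.8 and 96.0 in mutant liver and 68.2, 56.1 and 50.7 in control liver, again with no overlap. Nfu1 read 582, 592 and 585 in mutant liver and 491, 476 and 757 in control liver. The mutants sat between controls 2 and 3, and the difference was 0.06 (SE 0.18).

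Ciao2a (Fam96a), the member of the cytosolic machinery, known for its part in maturing the iron regulatory protein IRP1, had the largest difference. It read 1772, 1513 and 1565 in mutant liver and 740, 735 and 747 in control liver, which averaged 1617 ± 137 in mutants and 740.5 ± 6.25 in controls. All mutants lay well above all controls, and the difference was 1.11 (SE 0.12, 95% interval 0.84 to 1.38), or 2.15-fold on this scale. Its second probe set read 762, 703 and 670 in mutant liver and 325, 315 and 331 in control liver, a difference of 1.10 (SE 0.14). With genes ordered from the most positive to the most negative difference, Ciao2a held rank 62 of 13326. Liver mutant 2, whose 3′ to 5′ ratio lay in the control range, was 1.02 above the control mean, against 1.24 for mutant 1 and 1.06 for mutant 3, and without mutants 1 and 3 together the difference was 0.99. The call was lost in that setting, with a covariate for that ratio, without the variance trend, without liver mutant 1 and without liver control 2.

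**Figure D1:**
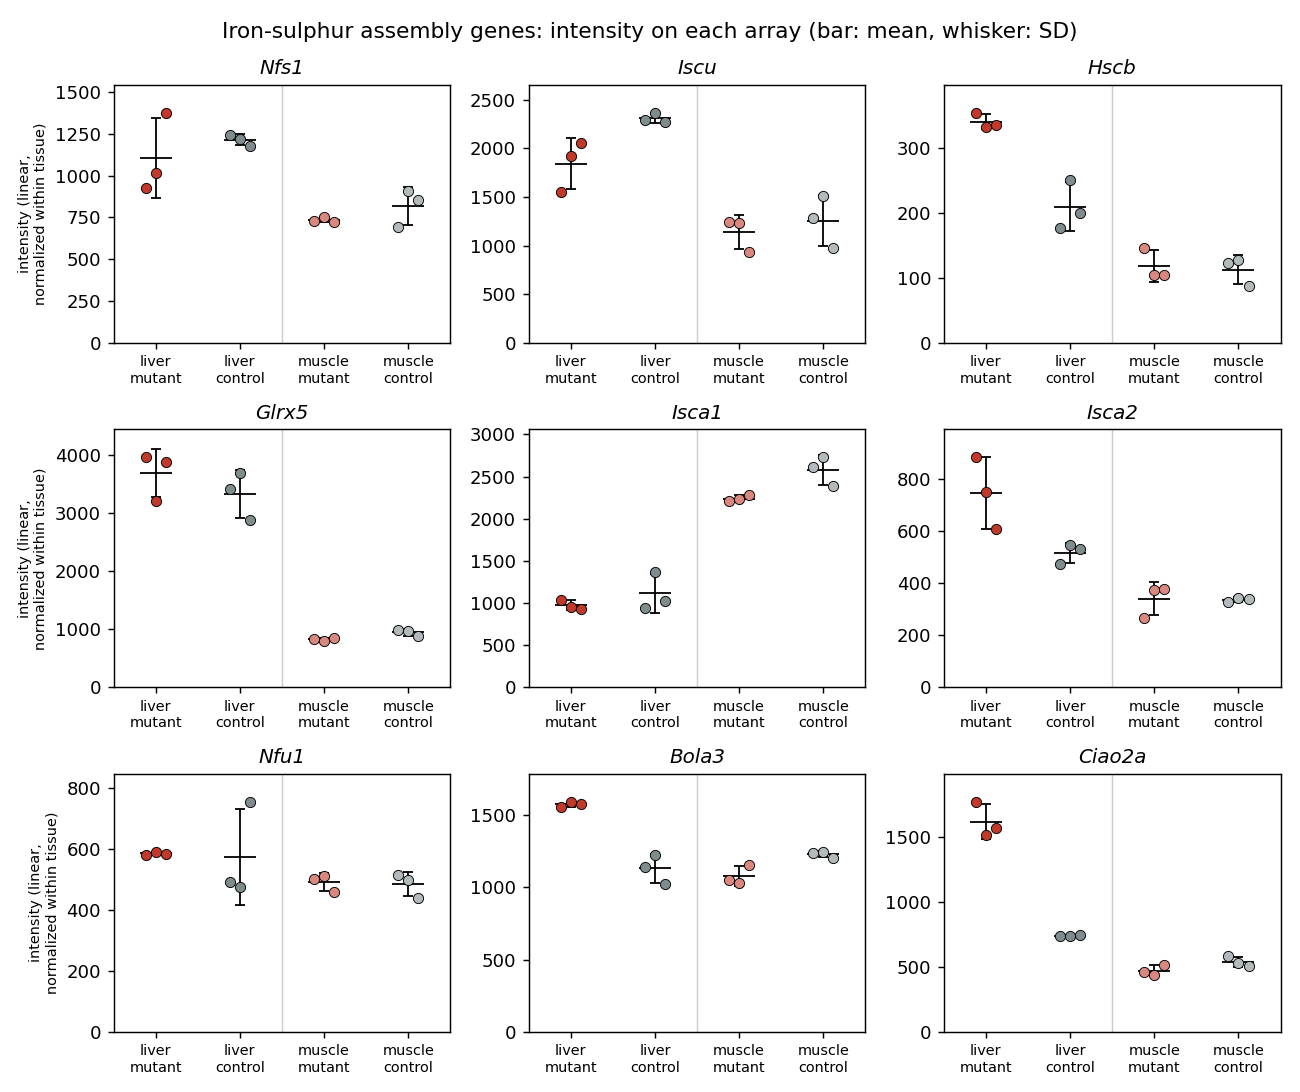
Intensity of the 9 assembly genes on each array (linear scale, brightest probe set, normalized within tissue), with points for the 3 arrays of each group, a bar for the mean and whiskers for the SD. Ciao2a, Hscb, Isca2 and Bola3 are higher on all mutant liver arrays than on all control liver arrays, Iscu is lower, and the muscle groups lie closer together; values of liver and muscle were normalized apart and are not on 1 scale.

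Set against the arrays, liver mutant 1 had 5 members above all controls and 2 below, mutant 2 had 4 above and 2 below, and mutant 3 had 6 above and 2 below. No share over all genes stands beside these counts, and the members were chosen with these values known, so nothing is read from them. The median member was 0.26, 0.07 and 0.23 above the control mean on mutants 1, 2 and 3, so the array with a control-like 3′ to 5′ ratio had the smallest median. Bola3 was 0.46, 0.49 and 0.48 above the control mean and Hscb 0.73, 0.64 and 0.65, on mutant 2 as on the others. Glrx5 was 0.26 and 0.23 above it on mutants 1 and 3 and -0.04 from it on mutant 2, and Iscu lay at -0.57, -0.26 and -0.17. With a covariate for the ratio the fit called none of the members, and 2 of all 13326 genes. The macrophage and hepatocyte markers also moved with the liver mutants, and their part in the members' values was not tested.

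**Figure D2:**
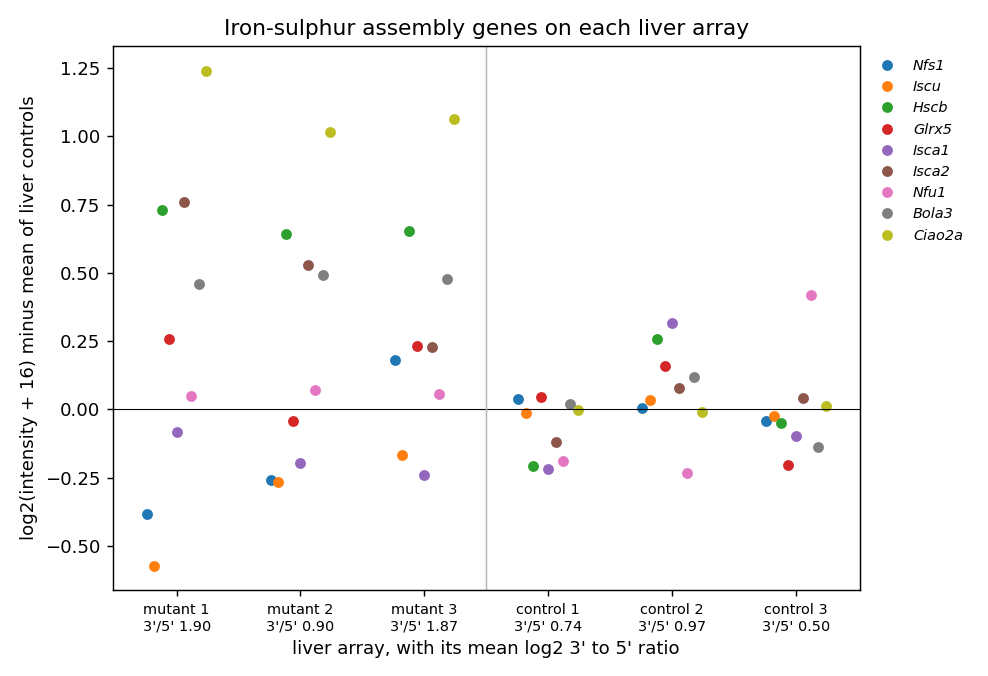
Each assembly gene (points set slightly apart sideways) on each of the 6 liver arrays, as log2(intensity + 16) minus the mean of the 3 liver controls, with the mean log2 3′ to 5′ ratio of the array under its name. Ciao2a, Hscb and Bola3 sit at similar heights on all 3 mutants, while Nfs1 lies between -0.38 and 0.18 and Iscu between -0.57 and -0.17.

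In muscle the same genes lay within 0.20 of the controls. Differences ran from -0.20 for Isca1 to 0.06 for Hscb, with a median of -0.14 over the members and -0.00 over all 13131 genes tested. The fit called 0 of the 9, against 0.0152% of all genes, and 1 of the 9, Isca1, had an unadjusted limma p under 0.05, against 4.26% of all genes. Groups did not overlap for 3 members, against 9.54% of all genes, and all 3 had the mutants below, as did 5.22% of all genes. The choice of members used these values too, so nothing is read from the counts in muscle.

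Isca1 read 2208, 2231 and 2279 in mutant muscle and 2619, 2731 and 2384 in control muscle, a difference of -0.20 (SE 0.08, 95% interval -0.38 to -0.02). Glrx5 read 834, 805 and 847 in mutant muscle and 984, 973 and 883 in control muscle (-0.19, SE 0.09). Bola3 read 1053, 1030 and 1158 in mutant muscle and 1239, 1242 and 1205 in control muscle (-0.18, SE 0.09). For these 3 genes each mutant array was below each control array, by a small margin. As deposited, Bola3 on mutant muscle 3 (1206) was above control muscle 2 and 3 (1148 and 1204). The dimmer Bola3 probe set gave 0.03 (SE 0.14), so the 2 probe sets of Bola3 differed in sign.

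Ciao2a read 457, 436 and 518 in mutant muscle and 581, 533 and 503 in control muscle, a difference of -0.19 (SE 0.11, 95% interval -0.44 to 0.06), and its second probe set gave 0.09 (SE 0.12). Iscu read 1247, 1232 and 936 in mutant muscle and 1284, 1509 and 979 in control muscle, and Nfs1 read 727, 751 and 726 in mutant muscle and 690, 907 and 856 in control muscle. The 2 early genes thus overlapped between groups. Hscb read 146, 104 and 104 in mutant muscle and 123, 127 and 87.2 in control muscle. Isca2 read 267, 376 and 379 in mutant muscle and 327, 344 and 340 in control muscle, and Nfu1 read 504, 513 and 458 in mutant muscle and 514, 499 and 440 in control muscle. Ciao2a and these 3 overlapped as well. Mutant muscle 1, 2 and 3 had 5, 4 and 4 members below all controls and 1 each above. Nothing is read from these counts either, which have no share over all genes beside them.

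The difference between the 2 tissues in the mutant effect is the liver effect minus the muscle effect in a fit of all 12 arrays. It was largest for Ciao2a, at 1.30 (SE 0.16, 95% interval 0.96 to 1.63), and next for Bola3, at 0.66 (SE 0.14, 95% interval 0.36 to 0.96). These 2 of the 9 members were called, against 1.42% of 11841 genes, a count from which nothing is read because the choice of members used these values. Hscb differed by 0.61 (SE 0.25), Isca2 by 0.51 (SE 0.22) and Glrx5 by 0.34 (SE 0.16), none of them called. Nfu1, Isca1 and Nfs1 lay between -0.01 and 0.04 and Iscu at -0.20. The member median was 0.34, against 0.03 over all genes. Bola3 lost its call in 8 of 13 other settings and in 9 of 12 fits that left out 1 array, keeping it without liver mutant 2, liver control 2 or muscle mutant 3. Ciao2a lost it in 2 of the 13, with no variance trend and with the RNA quality covariate, and in 0 of the 12.

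**Figure D3:**
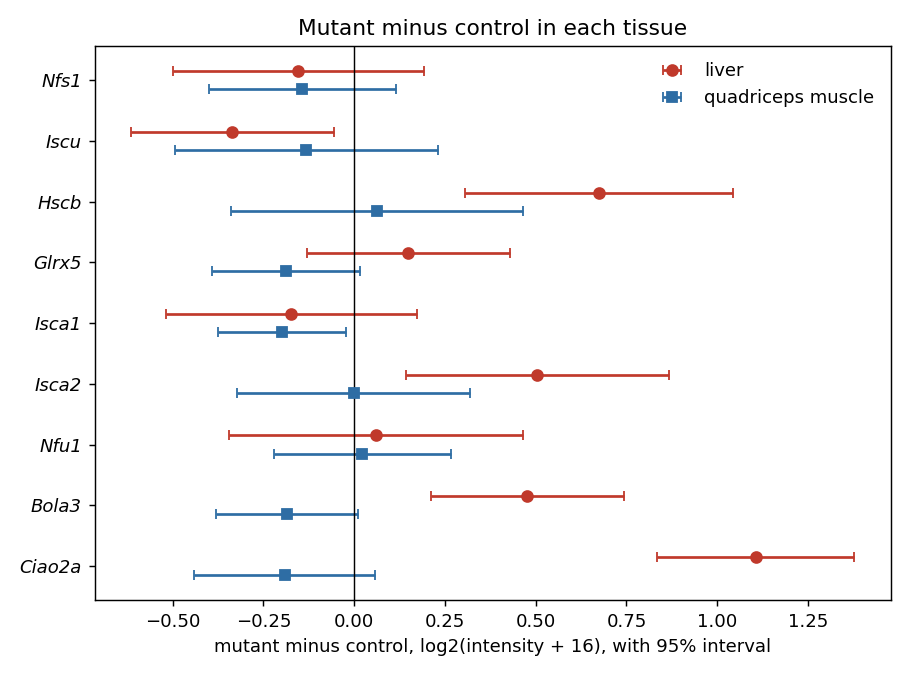
Mutant minus control difference of each member in liver (circles) and quadriceps muscle (squares) on the log2(intensity + 16) scale, with 95% intervals. In liver the differences run from -0.33 for Iscu to 1.11 for Ciao2a, and in muscle from -0.20 to 0.06.

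Probe sets of the same gene gave a check within the arrays. In liver the 5 members with 2 tested probe sets had the same sign of difference in both, 5 of 5. In muscle, where differences were small, 2 of 5 did, and Bola3, Ciao2a and Nfu1 had opposite signs. For the difference between tissues 4 of 5 had the same sign, with Isca1 the exception. The dimmer Nfu1 probe set read 661, 570 and 624 in mutant liver and 423, 540 and 533 in control liver, a difference of 0.31 (SE 0.15) where the brighter one had 0.06.

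The comparison of control liver with control muscle was taken not to have entered the choice of the members and was tested on that basis. The sources used here do not settle this, and its p-values rest on it. It needs both tissues on 1 scale, for which all 12 arrays were brought to the same distribution. Isca1 differed most: it averaged 846 ± 165 in control liver and 3556 ± 229 in control muscle, a difference of -2.07 (SE 0.12, limma adjusted p = 3.62e-10). Bola3 was lower in liver as well, at 860 ± 74.3 in liver and 1686 ± 27.9 in muscle (-0.96, SE 0.10, limma adjusted p = 3.87e-07). Glrx5 was the member higher in liver, at 2420 ± 293 in liver and 1276 ± 78.9 in muscle (0.91, SE 0.11, limma adjusted p = 3.41e-06). No liver array overlapped a muscle array for these 3 genes. A second probe set of Isca1 (-1.83, SE 0.22) and one of Bola3 (-0.71, SE 0.17) gave the same direction.

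Nfu1, at 449 ± 117 in control liver and 630 ± 52.5 in control muscle, differed by -0.50 (SE 0.15, limma adjusted p = 0.00915), and Ciao2a, at 571 ± 4.72 in liver and 704 ± 53.0 in muscle, by -0.29 (SE 0.11, limma adjusted p = 0.0350). The second probe set of Nfu1 gave -0.08 (SE 0.14) and was not called, and that of Ciao2a gave 0.09 (SE 0.12), with the opposite sign. Hscb (0.28, SE 0.18), Nfs1 (-0.23, SE 0.14), Isca2 (-0.08, SE 0.16) and Iscu (-0.00, SE 0.16) were not called, with 95% intervals from -0.09 to 0.66 for Hscb and from -0.34 to 0.33 for Iscu. In all 5 of 9 members were called, against 57% of 13437 genes, with 1 higher against 27.3% and 4 lower against 29.8%, and 4 of 9 had groups that did not overlap, against 63.6%. The called share is near that of all genes, so a tissue difference is not a result about these genes as a set. The split by direction followed the scaling: 6 members were higher and 1 lower as deposited, and 2 were higher and 2 lower with either form of centring. Without liver control 2 the count was 3.

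How the tissues are scaled to each other decides several of these values. The median of all genes tested was -0.01 in the joint normalization, 0.07 after centring array medians, 0.06 after normalizing within tissue and then centring, and 0.51 as deposited, and the share of called genes that were higher in liver was 47.8%, 53.9%, 53.4% and 74.2% in that order. Isca1, from -2.07 to -1.26, and Glrx5, from 0.91 to 1.69, kept direction and call under all 4 scalings. Bola3 kept its direction but was not called as deposited (-0.18, limma adjusted p = 0.233). Nfu1 turned to 0.20 as deposited and was called under none of the other 3 scalings (limma adjusted p from 0.220 to 0.418). Ciao2a turned to 0.42 as deposited, where it was called higher, and was not called with either form of centring, and Nfs1, Iscu and Isca2 turned positive under each of the other 3 scalings. Relative to the median of all genes as deposited, the Nfu1 and Ciao2a values lie below it.

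**Figure D4:**
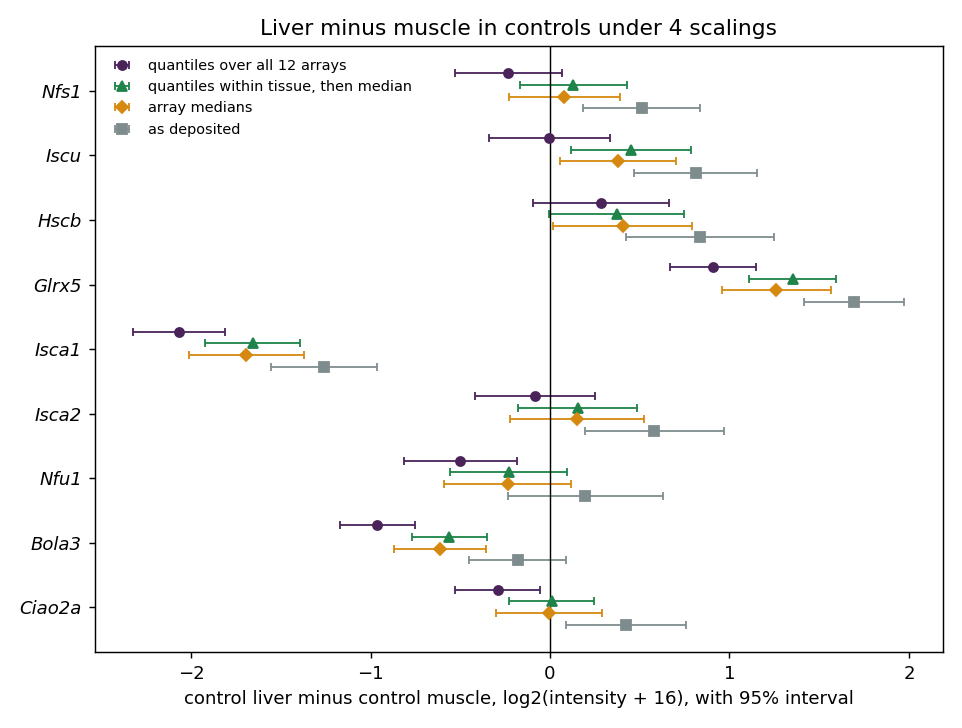
Control liver minus control muscle for each member on the log2(intensity + 16) scale with 95% intervals, under 4 ways of scaling the arrays. Isca1 stays below 0 and Glrx5 above 0 throughout, while Nfs1, Iscu, Isca2, Nfu1 and Ciao2a lie on both sides of 0.

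Over the 4 groups on the joint scale, Ciao2a averaged 1205 ± 96.2 in mutant liver and 571 ± 4.72 in control liver, and 612 ± 56.1 in mutant muscle and 704 ± 53.0 in control muscle. Mutant liver was the highest group and stood clear of the next, while the lower 3 overlapped at their neighbours. Isca1 averaged 745 ± 40.4 in mutant liver and 846 ± 165 in control liver, and 3118 ± 49.4 in mutant muscle and 3556 ± 229 in control muscle. Glrx5 averaged 2671 ± 288 in mutant liver and 2420 ± 293 in control liver, and 1107 ± 30.1 in mutant muscle and 1276 ± 78.9 in control muscle. For both genes the order was set by tissue, and the liver groups overlapped.

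Bola3 averaged 1177 ± 12.1 in mutant liver and 860 ± 74.3 in control liver, and 1470 ± 102 in mutant muscle and 1686 ± 27.9 in control muscle, which put all 4 groups apart with both muscle groups on top. Between the tissues in mutants, which share the mutant arrays with the values above and are given without a test, Ciao2a differed by 0.96 and Hscb by 0.86 (liver minus muscle), against -0.29 and 0.28 in controls. Bola3 differed by -0.31 in mutants and -0.96 in controls, and Isca1 by -2.04 in mutants and -2.07 in controls. The Bola3 value in mutants turned to 0.60 as deposited.

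Other genes of the pathway were taken from 5 lists of 68 genes, of which 59 were measured. The lists were written with earlier results of these data known. Below, each p-value or call for mutant against control, or for its difference between tissues, gives a gene's place in the genome-wide fit. It is no independent support, and nothing is read from the list counts in these comparisons. In liver the other mitochondrial assembly and export genes had 1 of 13 called, higher, against 2.33% of all genes called higher, with a list median of 0.27 against 0.01 over all genes. It was Grpel1, the nucleotide exchange factor of the mitochondrial Hsp70, which read 2760, 2186 and 2404 in mutant liver and 1503, 1686 and 1651 in control liver (0.59, SE 0.12, limma adjusted p = 0.0322). Every mutant array was above every control array. The call held in 8 of 14 other settings and, of the 6 fits that left out 1 array, in the 1 without liver mutant 2, the array with the control-like 3′ to 5′ ratio. None of 9 cytosolic assembly genes was called, against 3.35% of all genes, with a median of 0.05. The smallest p among them was that of Bola2, a partner of the glutaredoxin Glrx3, at 597, 375 and 522 in mutant liver and 246, 322 and 251 in control liver (0.81, SE 0.20, limma adjusted p = 0.0515).

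Of 11 mitochondrial client genes 0 were called in liver, against 3.35% of all genes. Their median was -0.14 and became 0.07 as deposited. Etfdh, the electron transfer flavoprotein dehydrogenase, had the smallest p, at 916, 1138 and 991 in mutant liver and 1267, 1240 and 1513 in control liver (-0.40, SE 0.14, limma adjusted p = 0.148). Of 14 cytosolic and nuclear client genes 1 was called lower, against 1.03% of all genes, and the list median was -0.03. The gene was Dpyd, the pyrimidine-degrading dehydrogenase, at 2769, 3239 and 2656 in mutant liver and 4664, 4043 and 3979 in control liver (-0.55, SE 0.11, limma adjusted p = 0.0331).

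Of 10 genes of iron uptake, storage and export 2 fell in liver, against 1.03% of all genes called lower, and the list median was -0.07. Tfr2, the hepatocyte transferrin receptor that senses iron, read 1577, 1929 and 1491 in mutant liver and 2647, 2745 and 2440 in control liver (-0.65, SE 0.13, limma adjusted p = 0.0268). Cp, the ferroxidase ceruloplasmin, read 5412, 6088 and 5684 in mutant liver and 8245, 8219 and 7297 in control liver (-0.47, SE 0.09, limma adjusted p = 0.0266). For Dpyd, Tfr2 and Cp the groups did not overlap, but as deposited or with centred medians none of the 3 was called. With 1 array left out, each of the 3 kept its call without liver mutant 2 alone. The share of called liver genes that were higher moved with this scaling too, at 69.4% after normalization within tissue, 93.9% as deposited and 90.1% with centred medians.

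In muscle 0 genes of the 5 lists were called, against 0.0152% of all genes. The list medians ran from -0.29 for the mitochondrial clients to 0.02 for the cytosolic and nuclear clients. The mitochondrial client with the smallest p was Sdhb, the iron-sulphur subunit of succinate dehydrogenase, at 3150, 3032 and 2836 in mutant muscle and 3949, 4137 and 3884 in control muscle (-0.41, SE 0.07, limma adjusted p = 0.582). All mutant arrays were below all controls, yet the adjusted p did not pass. Tfrc, the transferrin receptor, gave -0.48 (SE 0.16) and Ndufab1, the mitochondrial acyl carrier protein that is part of the assembly complex, -0.32 (SE 0.09), neither called.

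For the difference between tissues in the mutant effect, Ndufab1 was called, at 0.58 (SE 0.14), with a limma adjusted p just under 0.05. It read 1916, 2021 and 2155 in mutant liver and 1548, 1775 and 1756 in control liver, and 1745, 1788 and 1827 in mutant muscle and 2166, 2106 and 2458 in control muscle. Mutants were above all controls in liver and below all controls in muscle. The call held in 3 of 13 other settings and, of the 12 fits that left out 1 array, in the 1 without liver mutant 2. With the mean of all its probe sets the value was 0.25, and as deposited (0.74) and with centred medians (0.72) it was not called. No other gene of the 5 lists was called, where 1.42% of all genes were. The list medians were 0.37 (other mitochondrial assembly and export), 0.21 (cytosolic assembly), 0.14 (mitochondrial clients), -0.09 (cytosolic and nuclear clients) and 0.09 (iron). The share of called genes with the larger effect in liver was 81.5%, against 96.5% as deposited and 96.6% with centred medians.

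Between control liver and control muscle 57% of all genes were called, 27.3% higher and 29.8% lower in liver. Each list was counted in both directions. Mitochondrial clients had 1 of 11 higher and 7 lower in liver, among them Ndufs1 (-2.00), Ndufs7 (-1.70) and Ndufv2 (-1.56), subunits of complex I, and Uqcrfs1 (-0.98), the Rieske protein of complex III. As deposited these counts were 3 higher and 3 lower, and Uqcrfs1 was no longer called. Cytosolic assembly genes had 5 of 9 higher and 1 lower, with Ciapin1 at 2.33, Nubp1 at 1.10 and Nubp2 at 1.06, all called under each of the 4 scalings. The lower gene was Ciao3, at -0.79, which was not called as deposited (-0.19). Other mitochondrial assembly genes had 6 of 13 higher and 3 lower, with Fdx1, the ferredoxin, at 1.64 and Ndufab1 at -1.30. Cytosolic and nuclear clients had 7 of 14 higher and 4 lower, led by Dpyd (6.13) and Aco1 (3.04), which encodes IRP1. Among the lower ones was Elp3 (-1.32), called under each of the 4 scalings. Iron genes had 6 of 10 higher and 2 lower, led by Hamp (6.93), the liver hormone hepcidin, Tfr2 (6.10) and Cp (5.27).

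Among the members, the values over all 12 arrays, each tissue centred on its own mean, ran together most for Bola3 and Ciao2a (Pearson r = 0.92) and were most opposed for Iscu and Isca2 (r = -0.66). Hscb and Isca2 followed Ciao2a with r = 0.78 and r = 0.76, while Nfs1 (r = -0.36) and Iscu (r = -0.55) ran against it. Outside the set, the 5 genes with the pattern most like the mean of the members were Ndufb2 (r = 0.97), Timm23 (r = 0.96), Ndufa8 (r = 0.94), Phpt1 (r = 0.94) and Dusp22 (r = 0.93). Those most like Ciao2a were Tm2d1, Eloc, Churc1, Ctla2b and Atp5e, each with r = 0.97. The 12 points share arrays, groups and the 3′ to 5′ differences of the liver mutants, so these values describe likeness only.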

How the data were processed

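RNA from liver and quadriceps muscle was hybridised to 12 one-colour Affymetrix arrays, 3 in each of 4 groups taken from the labels. The authors deposited linear intensity per probe set, 1 column per array; the sources used here do not say how probes were summarised or arrays scaled, and name d-Chip for clustering alone. All columns matched a labelled sample.

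The 64 control probe sets among 45101 stayed out. The annotation gave 34945 probe sets 1 symbol, 932 more than 1 and 9160 no symbol. For 34741 of those with 1 symbol, the symbol used was that of RefSeq for the Entrez identifier. Intensity was taken as log2(value + 16), normalised by quantiles within tissue, and jointly over 12 arrays for tissue comparisons. Probe sets with a mean above the 40th percentile were tested with limma 3.58.1 in R 4.3.3 (variance trend, Benjamini-Hochberg over all genes, threshold 0.05), with 4 residual degrees of freedom within a tissue and 8 over all arrays. The fits were tested on simulated data. The number of arrays limits the precision.

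The members and lists were chosen with earlier results of these data known. Named were all members and the 5 genes most like the member mean or Ciao2a. For each list and comparison, names came from up to 4 called genes or the 1 with the smallest p. Not all of these are printed. Dim probe sets of Nfs1 and Bola3, 1 each, were below the filter. Promoters are RefSeq's. Alternatives were other offsets, filters, scalings and probe set rules, a replicate block, array weights, no variance trend, all arrays fitted together, a 3′ to 5′ covariate and leaving out arrays. Figures used matplotlib 3.10.9 in Python 3.11.15.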

Additional observations from a re-analysis of the deposited data

Results flagged for a closer look

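The 3 genes below were marked because the test of the difference between liver and muscle in the mutant effect passed at an adjusted p under 0.05. Ciao2a differed by 1.30 on the log2 scale, with all 3 mutants above all controls in liver and the groups overlapping in muscle. Bola3 differed by 0.66, with all mutants above all controls in liver and below all controls in muscle after normalization within tissue. As deposited its muscle groups overlapped, and its dimmer probe set gave 0.03 in muscle. The call of Bola3 held in 5 of 13 other settings and in 3 of 12 fits that left out 1 array. Ndufab1 differed by 0.58, also with all mutants above all controls in liver and below them in muscle, and its adjusted p lay just under the threshold. The call of Ndufab1 held in 3 of 13 other settings and in 1 of 12 fits that left out 1 array, and its value was 0.25 with the mean of all its probe sets. Ciao2a and Bola3, and the list that holds Ndufab1, were chosen with earlier results of these data known.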

How the results depend on the processing

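In liver the count of called members was 1, where 3.35% of all genes were called. It was 3 with the filter at the 60th percentile (5.87% of all genes) and in the fit of all 12 arrays (7.49%). It was 2 with centred medians (2.5%), and 0 without the variance trend (0%) and with the 3′ to 5′ covariate (0.015%). With 1 array left out it ran from 0 to 1, at 0 without liver mutant 1 or liver control 2, where no gene was called. Nothing is read from these counts. The Ciao2a difference in liver stayed between 0.99 and 1.23. For the difference between tissues in the mutant effect the count was 2, with 1.42% of all genes called. It was 1 with no filter (0.319%), as deposited (0.482%), with centred medians (0.49%), with the mean of all probe sets (0.795%) and with the replicate block (0.557%). It was 0 without the variance trend (0%) or with the covariate (0.00845%), and from 1 to 2 with 1 array left out. For control liver against control muscle the count was 5, with 57% of all genes called. It was 7 as deposited (61.7%) and 3 with the mean of all probe sets (56.7%). It was 4 with centred medians (56.2%), within tissue then centred (56.9%) and without the variance trend (57.1%), and ran from 3 to 5 with 1 array left out. In muscle it was 0 throughout. Directions turned between control tissues for Nfs1 (0.51 as deposited, 0.080 with centred medians, 0.13 normalized within tissue and then centred), Iscu (0.81, 0.38 and 0.45), Isca2 (0.58, 0.15 and 0.15), Nfu1 (0.20 as deposited) and Ciao2a (0.42 as deposited, 0.0096 within tissue and centred). Between mutant tissues they turned for Nfs1 (0.61 as deposited, 0.16 with centred medians, 0.12 within tissue and centred), Iscu (0.76, 0.32 and 0.25), Bola3 (0.60, 0.15 and 0.10) and Nfu1 (0.26 as deposited). In liver the uncalled Glrx5 difference turned with the covariate (-0.15) and without liver mutants 1 and 3 together (-0.05), and that of Nfu1 without liver control 1 (-0.03) or 2 (-0.06). Apart from scaling, the causes were not tested. Over all genes the liver count, 447, ran from 0 to 998 and the count for the difference between tissues, 168, from 0 to 391. With each group's mean taken off every gene, same-numbered samples of 2 groups correlated with r from -0.07 to 0.14. Samples with different numbers gave r from -0.11 to 0.07. The highest value was that of mutant muscle 3 with control muscle 3. With 3 arrays per group this check cannot settle whether the numbers pair the samples. With the replicate block 1 member was called in liver (11 genes in all), 0 in muscle, 1 for the difference between tissues, and 4 between control tissues.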

Other observations

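Of the protein-coding genes next to Ciao2a in the GRCm38.p6 annotation order, 5 were tested in liver and none was called. Mutant minus control differences in liver were 0.20 for Ppib, 0.39 for Snx22, 0.10 for Snx1, 0.00 for Dapk2 and -0.24 for Herc1, against 1.11 for Ciao2a. In muscle they ran from 0.02 to 0.26, with none called.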
